A study of Rattus norvegicus with 14 samples.

Results

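Glutathione is the tripeptide that cells use to reduce peroxides and to tag reactive compounds for export. The account below covers 6 genes of its synthesis, recycling and transfer in rat IEC-6 cells exposed to non-steroidal anti-inflammatory drugs: Gclc, Gclm, Gsr, Gsta4, Gstm1 and Gstp1. They were chosen by symbol in the probe annotation with all their probe sets, which gave 7 probe sets of 31099 on the array and 6 of 14218 named genes. Gclc had 2 probe sets (1372523_at, the brighter one, and 1370688_at) and each of the others had 1. All 7 passed the filter on low signals, a signal of 100 on at least 2 arrays, and each reached 100 on all 14 arrays.

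IEC-6 is a commercially available, non-transformed line that grows as an epithelial monolayer and is labelled here as rat intestinal crypt cells. Monolayers were kept for 72 h with the solvent DMSO (4 arrays), 100 µM indomethacin (2 arrays), 100 µM NS-398 (4 arrays) or 1 µM SC-560 (4 arrays), and all groups shared the solvent. Array titles carry the digit 1 or 2, and part of them also the letter b. The 6 arrays without the letter and the 8 with it are called the plain set and the b set below. Each set held 2 DMSO, 2 NS-398 and 2 SC-560 arrays, and both indomethacin arrays were in the b set. No source used here says what the letter stands for. Per the design text, cells were pooled to yield enough RNA and each biological sample went onto 4 chips, while indomethacin has 2 arrays here. By that count the arrays of a group may come from 1 biological sample, at least within a set. Between the sets the DMSO arrays differed at 41.9% of the probe sets tested, as given below. No source says that the arrays of a group come from separate cultures, so the p-values measure how far these arrays scatter, and that scatter may be technical. Indomethacin blocks both cyclooxygenases, NS-398 prefers cyclooxygenase-2 and SC-560 prefers cyclooxygenase-1. The design text sorts indomethacin and NS-398 as drugs that inhibit the migration of intestinal epithelial cells, and SC-560 as one that does not.

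The arrays matched their epithelial label in part, and the sets differed. The epithelial cadherin Cdh1 gave signals of 2637 to 8412 and the keratin Krt8 of 2670 to 6893 over the 14 arrays, while Epcam, Krt18, Cldn3, Cldn4 and Cldn7 stayed under the filter. Of 12 genes that mark fibroblasts and smooth muscle 10 were measured, with Col1a1 at 10473 to 24194. In that list Thy1 and Pdgfrb stayed under the filter, and Pdgfra and Myh11 reached a signal of 100 on only 2 and 5 arrays. The leukocyte markers Ptprc, Cd3e and Itgam stayed under the filter, although Cd14 gave 2871 to 4088. The intestinal transcription factor Cdx2 was at 55.0 to 124 in the plain set and at 3072 to 5314 in the b set. The 3' to 5' signal ratio of the actin control was 1.498 to 1.639 in the plain set and 1.218 to 1.338 in the b set, and that of Gapdh was 0.902 to 0.990 and 0.955 to 1.002. Median signals lay between 97.8 and 118. In bulk RNA such as this, a change in the cells that make a transcript and a change of RNA per cell cannot be told apart.

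Synthesis of glutathione starts with the ligation of glutamate to cysteine. The enzyme has a catalytic subunit, encoded by Gclc, and a modifier subunit, encoded by Gclm, that raises its efficiency, and glutathione synthetase then adds glycine. Gsr encodes the reductase that returns oxidised glutathione to its reduced form. Glutathione transferases join glutathione to electrophiles: Gsta4 is the alpha-class enzyme known for the lipid aldehyde 4-hydroxynonenal, and Gstm1 and Gstp1 belong to the mu and pi classes. Many of these genes are known targets of NRF2, a transcription factor that binds antioxidant response elements, and the intestinal lining, which meets dietary electrophiles, uses the same enzymes.

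The start-site windows of 3 of the genes are shown because they differ in whether they hold the core of that element. These genes also differ in how they responded, and a link between a match and a response was not tested. Each window runs from 250 bases before the annotated start to 50 after it (RefSeq, build GRCr8, 300 bases, 5′ to 3′ on the gene's strand). The table of windows held 5 of the 6 genes, without Gsr. The Gclm window is chr2:213031885-213032184 on the plus strand, the Gstp1 window chr1:210769656-210769955 on the minus strand, and the Gsta4 window chr8:87947015-87947314 on the plus strand. Capitals mark a match to the antioxidant response element core TGACNNNGC, searched on both strands.
Gclm: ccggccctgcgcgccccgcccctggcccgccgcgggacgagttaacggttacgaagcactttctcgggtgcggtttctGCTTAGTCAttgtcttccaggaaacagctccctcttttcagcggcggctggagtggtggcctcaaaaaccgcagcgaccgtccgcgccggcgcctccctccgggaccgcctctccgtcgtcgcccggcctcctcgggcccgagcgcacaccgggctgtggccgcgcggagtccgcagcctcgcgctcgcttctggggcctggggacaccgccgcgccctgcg
Gstp1: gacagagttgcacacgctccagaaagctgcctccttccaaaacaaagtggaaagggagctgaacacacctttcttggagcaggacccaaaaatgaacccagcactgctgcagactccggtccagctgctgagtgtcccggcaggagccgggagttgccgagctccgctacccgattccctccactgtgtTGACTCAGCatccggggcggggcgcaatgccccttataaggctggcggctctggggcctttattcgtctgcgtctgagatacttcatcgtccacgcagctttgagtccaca
Gsta4: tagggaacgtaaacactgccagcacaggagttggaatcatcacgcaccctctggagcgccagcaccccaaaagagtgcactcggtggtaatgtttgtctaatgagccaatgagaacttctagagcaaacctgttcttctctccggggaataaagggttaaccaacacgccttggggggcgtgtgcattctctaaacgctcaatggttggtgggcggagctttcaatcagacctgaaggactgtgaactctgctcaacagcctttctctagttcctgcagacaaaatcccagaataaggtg

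The core matched in 2 of the 5 windows and in 4038 of 33469 windows of the same length over the genome (12.1%). In Gclm it lay on the opposite strand, as TGACTAAGC, between 172 and 164 bases before the start. In Gstp1 it lay as printed, between 61 and 53 bases before the start, and it overlapped a match to the AP-1 element TGACTCA, which 4.63% of all windows hold. The windows of Gsta4, Gclc and Gstm1 held no match to the core, which says only that these letters are not in these windows. The Gclc and Gclm windows were rich in G and C, at 76.7% and 72.0%, against 50.3% for Gsta4, 52.0% for Gstm1, 58.0% for Gstp1 and a median of 51.7% over all windows. The Gclc and Gsta4 windows lie 436.5 kb apart on chromosome 8.

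NS-398 against DMSO asks what the drug with the cyclooxygenase-2 preference does to this system. In the plain set all 6 genes were higher with NS-398, and the modifier subunit Gclm changed most, at 3.14 times its DMSO signal. In the b set 5 of the 6 were higher, and Gclm was the exception, at 1.08 times. Over the mean of both sets all 6 were called, as a limma adjusted p under 0.05 is termed here. Among all 17515 probe sets tested, 11.9% were called in the plain set (6.13% as higher) and 14.7% in the b set (7.71% as higher). Over the mean of the sets 19.5% were called (10.0% as higher). The 6 genes were chosen with earlier results of these data known, so these shares stand beside their counts only as a description. The median log2 change of the 6 genes was 0.67 in the plain set, 0.41 in the b set and 0.57 over the mean, beside -0.0039, -0.0090 and -0.0076 over all probe sets. All log2 changes are on the log2(signal + 50) scale and stand with standard errors from the fit. Ratios of signals are ratios of group means on the linear scale.

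**Figure D1:**
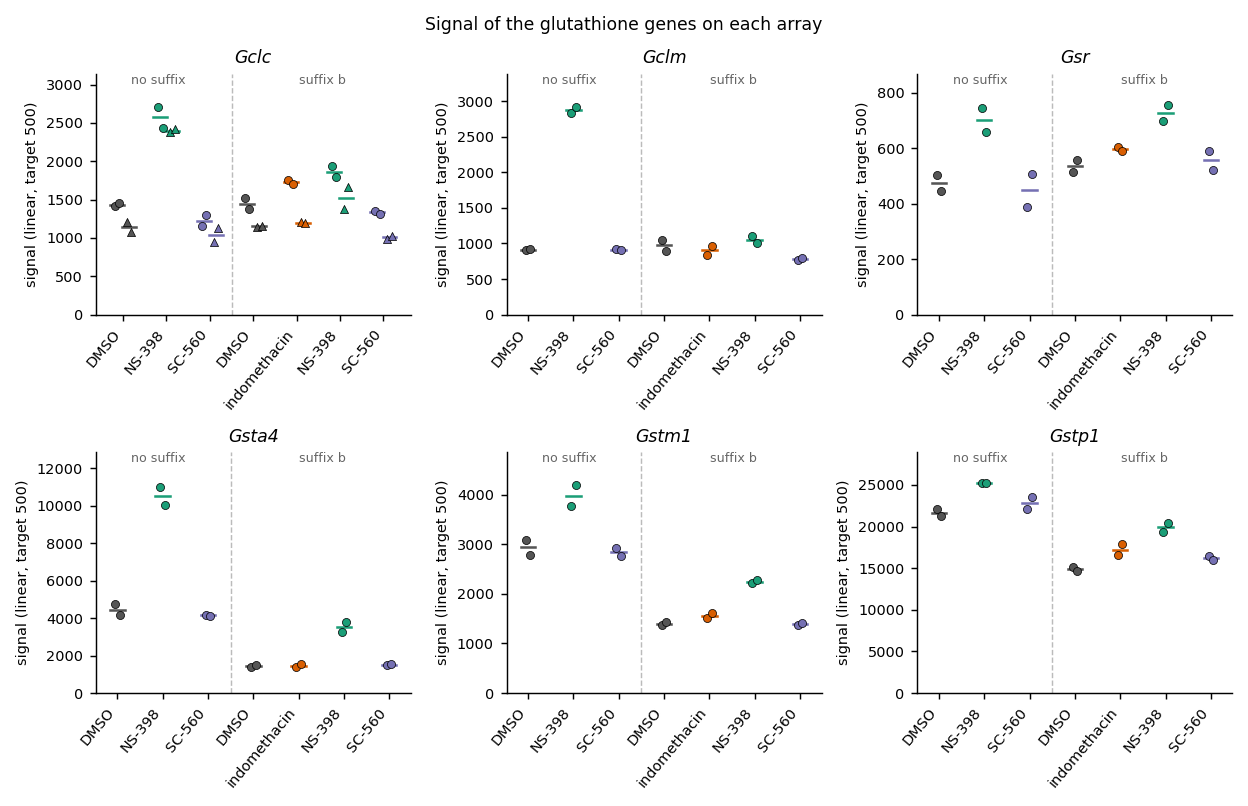
Linear signal (target 500) of each gene on each of the 14 arrays, with the plain set left of the dashed line (no suffix) and the b set right of it (suffix b). Points are arrays and bars are the means of 2 arrays, and for Gclc circles are 1372523_at and triangles 1370688_at. The plain-set NS-398 arrays of Gclm stand apart at 2831 and 2910, and those of Gsta4 at 10978 and 10008.

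Gclm, the modifier subunit, had DMSO signals of 906 and 923 in the plain set and 1048.5 and 898 in the b set. With NS-398 the plain-set arrays read 2831 and 2910 and the b-set arrays 1100 and 1008. The plain-set arrays lay far above their controls, and the b-set arrays overlapped theirs. Gclm rose by a log2 change of 1.60 ± 0.09 in the plain set (95% interval 1.41 to 1.79, limma adjusted p 2.03e-08). In the b set the log2 change was 0.11 ± 0.09 (interval -0.08 to 0.30, adjusted p 0.47). The difference between the 2 effects, b set minus plain set, was -1.49 ± 0.13 (limma adjusted p 6.07e-06), in a test that called 6.09% of all probe sets, and 2 of the 6 genes. In descending order, the plain-set NS-398 mean of 2870 was followed by 1054 for NS-398 in the b set, 973 for DMSO in the b set, 915 for plain DMSO, 913 for plain SC-560, 903 for indomethacin and 783 for SC-560 in the b set. From the second to the sixth of these, the array values of each neighbouring pair overlapped.

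Gclc, the catalytic subunit, had DMSO signals at 1372523_at of 1411 and 1455 in the plain set and 1524 and 1371 in the b set. The NS-398 arrays read 2713 and 2439 in the plain set, and 1935 and 1795 in the b set. The NS-398 arrays were above the DMSO arrays in both sets, with the wider gap in the plain set. Gclc rose by 0.82 ± 0.08 in the plain set (limma adjusted p 1.04e-05) and by 0.36 ± 0.08 in the b set (adjusted p 0.00828), or 1.80 and 1.29 times the DMSO signal. The effect was smaller in the b set, with a difference, b set minus plain set, of -0.47 ± 0.12 (adjusted p 0.026).

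The other Gclc probe set, 1370688_at, read 1211 and 1074 with plain DMSO, 1141 and 1161 with b-set DMSO, 2377 and 2421 with plain NS-398, and 1378 and 1665 with b-set NS-398. Its changes had the same direction: 1.04 ± 0.10 in the plain set (limma adjusted p 6.07e-06) and 0.38 ± 0.10 in the b set (adjusted p 0.0155), with a difference of -0.66 ± 0.14 (adjusted p 0.0105). The Gclc calls in the b set and for the difference rested on single arrays in part. Without b-set DMSO array 2 or b-set NS-398 array 1 the b-set call at 1372523_at was lost, with adjusted p up to 0.0926. The difference lost its call without any of 5 arrays (plain DMSO 1 and 2, b-set DMSO 1, plain NS-398 1, b-set NS-398 2), with adjusted p up to 0.116.

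Gsr, the reductase, gave DMSO signals of 504 and 445 in the plain set and 513 and 557 in the b set, against NS-398 signals of 745 and 660, and 699 and 756. Each NS-398 array was above every DMSO array. Gsr rose by 0.52 ± 0.12 in the plain set (limma adjusted p 0.0109), by 0.41 ± 0.12 in the b set (adjusted p 0.0331) and by 0.46 ± 0.09 over both (adjusted p 0.00128). The effects of the sets differed by -0.11 ± 0.17 (interval -0.48 to 0.26, adjusted p 0.774). The plain-set call was lost without plain DMSO array 2 or NS-398 array 1 (adjusted p up to 0.107), and the b-set call without any of its 4 arrays (adjusted p up to 0.193). The call over both sets was kept whichever array was left out.

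Gsta4, the alpha-class transferase, had the largest difference of the 6 between the controls of the sets, with DMSO signals of 4722 and 4175 in the plain set and 1377 and 1507 in the b set. NS-398 gave 10978 and 10008 in the plain set, and 3268 and 3796 in the b set. The NS-398 arrays thus stood above their own controls in both sets, while the b-set NS-398 arrays stayed below the plain-set controls. Gsta4 rose by 1.23 ± 0.09 in the plain set (limma adjusted p 2.87e-07) and by 1.26 ± 0.09 in the b set (adjusted p 1.15e-07), that is 2.36 and 2.45 times the DMSO signal. The 2 effects differed by 0.03 ± 0.12 (interval -0.22 to 0.29, adjusted p 0.918).

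Gstm1, the mu-class transferase, read 3084 and 2795 with plain DMSO and 1369 and 1431 with b-set DMSO, against 3771 and 4194 and then 2220 and 2279 with NS-398. No NS-398 array overlapped the controls of its set. The log2 changes were 0.43 ± 0.07 (limma adjusted p 0.00124) and 0.67 ± 0.07 (adjusted p 2.4e-05), differing by 0.23 ± 0.10 (interval 0.01 to 0.46, adjusted p 0.21). Gstp1, the pi-class transferase, read 22093 and 21272 with plain DMSO, 15173 and 14608 with b-set DMSO, 25281 and 25189 with plain NS-398, and 19388 and 20438 with b-set NS-398. Gstp1 changed least of the 6 in the plain set, with a rise of 0.22 ± 0.05 (adjusted p 0.00835), and rose by 0.42 ± 0.05 in the b set (adjusted p 3.81e-05). The difference was 0.20 ± 0.07 (interval 0.05 to 0.35, adjusted p 0.105). Its plain-set call was lost without plain DMSO array 2, plain NS-398 array 1 or plain NS-398 array 2, with adjusted p up to 0.103 over all alternatives. Probe sequences were not used here, so signal shared between near-identical transferase genes cannot be told apart.

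**Figure D2:**
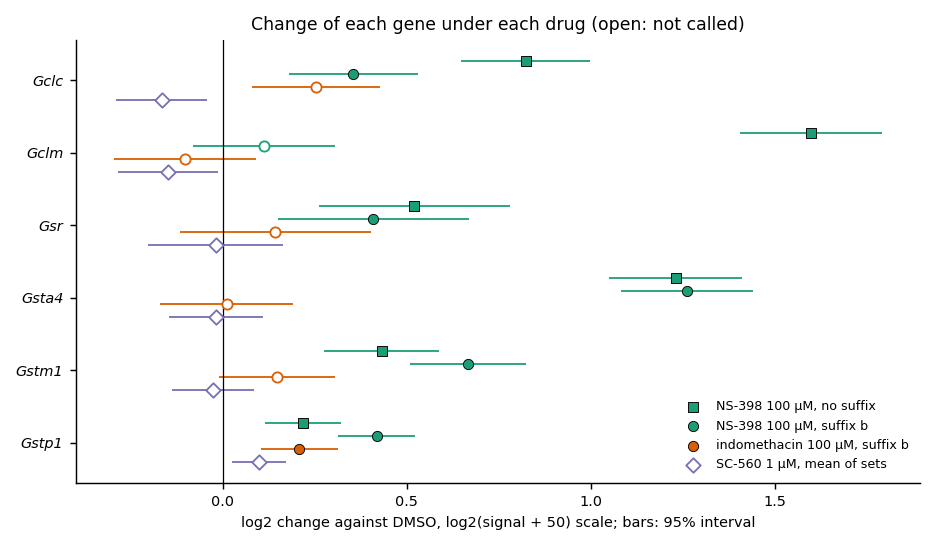
Log2 change of each gene against DMSO on the log2(signal + 50) scale, with 95% intervals that are not adjusted for the number of probe sets. Filled symbols are called (limma adjusted p under 0.05) and open ones are not: squares are NS-398 in the plain set, circles are b-set contrasts and diamonds are SC-560 over the mean of both sets. Gsta4 has nearly the same NS-398 change in both sets (1.23 and 1.26) while Gclm has 1.60 and 0.11.

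Indomethacin at 100 µM could be set against DMSO only within the b set. Of the 6 genes 1, Gstp1, was called, where 7.10% of all probe sets were called and 3.43% as higher. With 2 arrays against 2, a gene without a call may still have changed. The median log2 change of the 6 was 0.15, beside -0.0037 over all probe sets. Gstp1 read 16543 and 17900, above its b-set controls, for a rise of 0.21 ± 0.05 (limma adjusted p 0.0171). That call was lost without b-set DMSO array 1 (adjusted p 0.0683), without b-set DMSO array 2 (adjusted p 0.12) or without the second indomethacin array (adjusted p 0.19), and when the array medians were set equal (adjusted p 0.0516).

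The synthesis genes gave no call with indomethacin. Gclc read 1761 and 1707 at 1372523_at, above its controls, with a log2 change of 0.25 ± 0.08 (unadjusted interval 0.08 to 0.43, limma adjusted p 0.077). At 1370688_at it read 1211 and 1190, with a change of 0.06 ± 0.10 (adjusted p 0.796). Gclm read 843 and 964, with a change of -0.10 ± 0.09 (adjusted p 0.575). The Gclm values overlapped the controls.

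Gsr read 603 and 589 with indomethacin, above its b-set controls, with a log2 change of 0.14 ± 0.12 (limma adjusted p 0.552). Gstm1 read 1507 and 1606, also above its controls, with 0.15 ± 0.07 (adjusted p 0.264). Gsta4 read 1379 and 1528, overlapping its controls, with 0.01 ± 0.09 (interval -0.17 to 0.19, adjusted p 0.963).

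NS-398 and indomethacin were given at the same dose and time, and the b set holds both, so they can be compared directly. All 3 transferases were higher with NS-398, and none of the 3 synthesis and recycling genes was called at the probe set that represents it. Over all probe sets 9.99% were called in this comparison and 5.87% as higher with NS-398. Gsta4 was higher by a log2 difference of 1.25 ± 0.09 (limma adjusted p 2.62e-07), or 2.43 times the indomethacin signal. Gstm1 was higher by 0.52 ± 0.07 (adjusted p 0.000331) and Gstp1 by 0.21 ± 0.05 (adjusted p 0.0125). The Gstp1 difference lost its call under 8 of 16 alternatives, with adjusted p up to 0.457.

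The synthesis and recycling genes gave smaller differences. The Gclc difference was 0.10 ± 0.08 at 1372523_at (interval -0.07 to 0.28, limma adjusted p 0.508) and 0.32 ± 0.10 at 1370688_at (adjusted p 0.0483, called), so its probe sets fell on different sides of the threshold. The Gclm difference was 0.21 ± 0.09 (interval 0.02 to 0.41, adjusted p 0.159) and that of Gsr 0.27 ± 0.12 (interval 0.01 to 0.53, adjusted p 0.195). The intervals are not adjusted, and these values do not show that the drugs act alike on these genes.

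SC-560 was given at 1 µM, against 100 µM for the other drugs, so its values are given beside theirs without a comparison. None of the 6 genes was called against DMSO over the mean of both sets, in a limma test that called 16 probe sets (0.0914%) and that gave 1768 an unadjusted p under 0.05. At an unadjusted p under 0.05 there were 3 of the 6. The log2 changes were -0.17 ± 0.06 for Gclc, -0.15 ± 0.06 for Gclm, -0.02 ± 0.09 for Gsr, -0.02 ± 0.06 for Gsta4, -0.03 ± 0.05 for Gstm1 and 0.10 ± 0.03 for Gstp1, with adjusted p from 0.319 to 0.967. Nor was the SC-560 effect called as different between the sets for any of the 6, in a test that called 3 probe sets (0.0171%) and gave 1071 an unadjusted p under 0.05.

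Array by array, SC-560 gave 918 and 908 for Gclm in the plain set, within the range of the controls, and 768 and 799 in the b set, below them. Gclc at 1372523_at gave 1156 and 1295, and then 1358 and 1310, all below the controls of the same set. Gclc at 1370688_at gave 943 and 1130, and then 992 and 1030. Only in the b set were both of those below the controls.

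The means of the other genes with SC-560 lay between 0.93 and 1.09 times DMSO of the same set. Gsr gave 387 and 508 in the plain set and 591 and 521 in the b set. Gsta4 gave 4167 and 4108, and then 1470 and 1554, and Gstm1 gave 2927 and 2761, and then 1377 and 1406. Gstp1 gave 22140 and 23520, and then 16465 and 16001, above the controls in both sets, at 1.05 and 1.09 times.

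The sets themselves differed at baseline. Among the DMSO arrays 41.9% of all probe sets were called between the sets, and 20.1% as lower in the b set. Of the 6 genes 3 were called, a share near that of all probe sets called in either direction. All 3 were called as lower, a larger share than the 20.1% of all probe sets, though over only 6 genes. Those 3 were the transferases, each lower in the b set: the log2 difference, b set minus plain set, was -1.59 ± 0.09 for Gsta4 (limma adjusted p 3.28e-10), -1.04 ± 0.07 for Gstm1 (adjusted p 9.52e-09) and -0.54 ± 0.05 for Gstp1 (adjusted p 1.72e-07). Their b-set controls had 0.324, 0.476 and 0.687 times the plain-set signal. Gclc (0.01 ± 0.08), Gclm (0.08 ± 0.09) and Gsr (0.16 ± 0.12) were not called, with adjusted p from 0.321 to 0.919. Other transferases did not all go the same way: of 10 other cytosolic ones 4 were called as lower in the b set and 2 as higher, among them Gstt2 (DMSO means of 297 in the plain set and 491 in the b set), and of 7 membrane and mitochondrial ones 1 was lower and 2 were higher, among them Mgst3 (343 and 722).

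The same division of arrays separated the Cdx2 levels and the actin 3' to 5' ratios given above, and other markers too. Cdh1 was at 7680 to 8412 in the plain set and 2637 to 3671 in the b set, the tight junction gene Tjp1 at 11328 to 12301 and 6963 to 7836, and the tight junction gene Ocln at 94.2 to 206 and 16.7 to 47.6. The keratin Krt8 went the other way, at 2670 to 3537 and 4483 to 6893. Of the matrix genes, the collagen Col1a2 was at 6781 to 9885 in the plain set and 18919 to 26221 in the b set, and the proteoglycan Dcn at 4215 to 9486 and 999.5 to 2559. The part of these differences in the transferase levels, and in the smaller Gclm and Gclc effects of NS-398 in the b set, was not tested. Within the b set the summed signal of the enterocyte markers (6 of 8 with a probe set, 4 measured, mostly Cdx2) was 4142 to 4653 with DMSO, 5987 to 6200 with indomethacin, 5791 to 6235 with NS-398 and 4832 to 4898 with SC-560. In the plain set it was 279 to 367 with DMSO, 380 to 408 with NS-398 and 295 to 358 with SC-560. There the sum was not mostly Cdx2, which was at 55.0 to 124 beside 115 to 231 for the marker Lgals4. Vil1, Cdx1, Alpi and Fabp2 gave at most 90.1 on the plain-set arrays, under the signal minimum of the filter. The plain-set sum therefore rests in large part on dim signals.

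The sums of the other marker lists also differed between drug groups in part. The epithelial sum (12 of 12 with a probe set, 6 measured) was mostly Tjp1, Krt8 and Cdh1, with medians of 7818, 4626 and 3558. The other genes in it gave signals of at most 766. In the plain set the sum was lower with NS-398, at 22565 to 22754 against 23521 to 23725 with DMSO. In the b set it was also lower, at 15511 to 16421 against 16758 to 16854 with DMSO. It was 18351 to 18949 with indomethacin and 18189 to 18616 with b-set SC-560. The leukocyte sum (5 of 6 with a probe set, 2 measured) was mostly Cd14, and the other genes in it gave signals of at most 126. It was higher with NS-398, at 4063 to 4151 against 3704 to 3909 with DMSO in the plain set. In the b set it was 3868 to 4026 against 3283 to 3551, and indomethacin gave 3948 to 4201. The fibroblast and smooth muscle sum (12 of 12 with a probe set, 10 measured) was 72854 to 74958 with plain DMSO, 68257 to 72367 with plain NS-398 and 91176 to 94503 with b-set DMSO. In the b set it was 91971 to 96889 with NS-398, 90948 to 94442 with indomethacin and 103620 to 106050 with SC-560. The part of any of these shifts in the drug effects was not tested.

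Over the 7 combinations of drug and set, the order of levels for Gsta4 ran from plain NS-398 (mean 10493) through plain DMSO (4449), plain SC-560 (4137) and b-set NS-398 (3532) to b-set SC-560 (1512), indomethacin (1454) and b-set DMSO (1442), of which the last 3 overlapped. For Gstm1 plain DMSO (2939) and plain SC-560 (2844) overlapped, as did b-set DMSO (1400) and b-set SC-560 (1391), and b-set NS-398 (2250) lay between these pairs. For Gstp1 every plain-set mean was above every b-set mean, from 25235 for plain NS-398 to 14890 for b-set DMSO. For Gsr the NS-398 means of the b set (727) and the plain set (702) were the highest and their arrays overlapped, followed by indomethacin (596).

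The other genes of the pathway were taken from 9 lists that hold 78 genes, of which 58 were measured, 11 stayed under the signal filter and 9 had no probe set of their own. The lists were chosen with earlier results of these data known, and each gene is represented by its brightest probe set. The shares over all probe sets also cover dimmer and unnamed ones, so the 2 kinds of share are set side by side only as a description. With NS-398, over the mean of both sets, 26 of the 58 rose and 6 fell, so that 55.2% were called against 19.5% of all probe sets. Leaving out 1 array at a time gave 16 to 24 higher and 5 to 6 lower. In the plain set 16 rose and 5 fell (36.2% called, against 11.9% of all probe sets). In the b set the counts were 20 and 4 (41.4%, against 14.7%), and with indomethacin 10 and 4 (24.1%, against 7.10%). The counts per list over the mean of both sets, given below, stand beside 10.0% of all probe sets called as higher. With 1 array left out these counts were 7 to 10 and 2 to 4 in the plain set, 10 to 16 and 1 to 3 in the b set, and 4 to 7 and 1 to 2 with indomethacin. The indomethacin counts were 4 and 4 with no filter on low signals and 3 and 1 with no intensity trend, and a model without the label sets called none of the 58 with NS-398 over both sets or with indomethacin. With SC-560 none of the 58 was called by limma, and 5 had an unadjusted p under 0.05. Between NS-398 and indomethacin 11 were higher with NS-398 and 2 lower (22.4% called, against 9.99% of all probe sets).

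**Figure D3:**
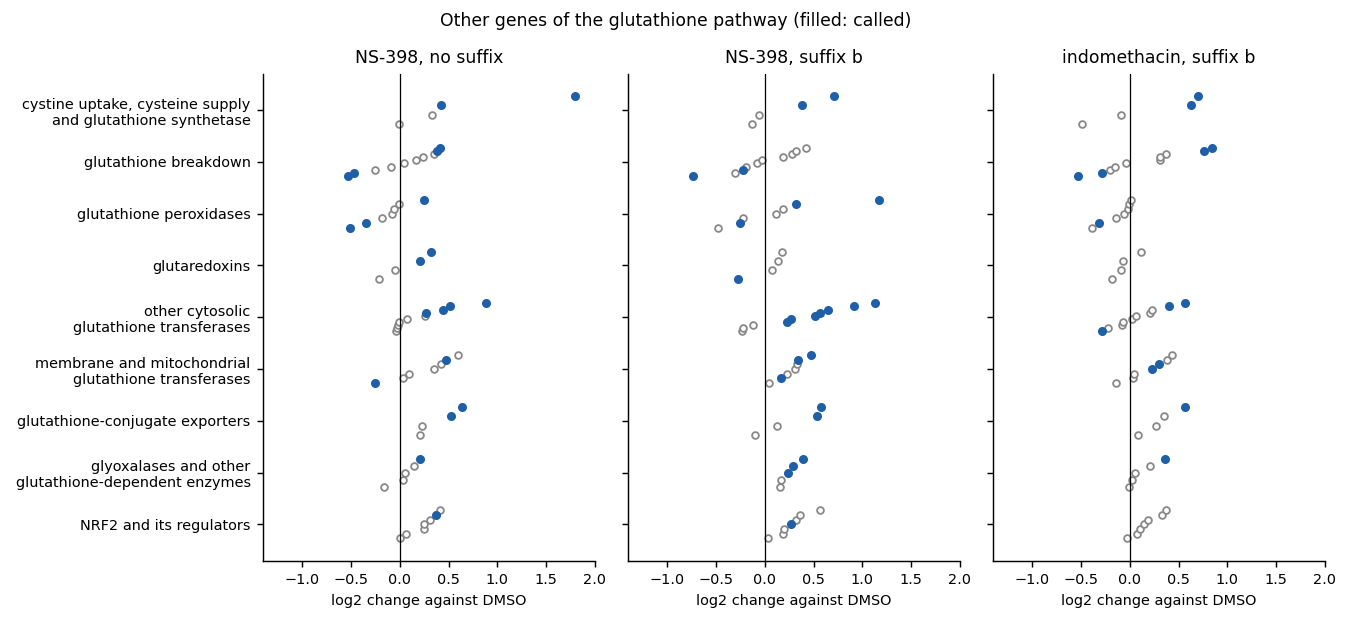
Log2 change against DMSO, on the log2(signal + 50) scale, of the 58 other genes measured, by list, for NS-398 in the plain set (no suffix), NS-398 in the b set (suffix b) and indomethacin in the b set. Each point is a gene, filled where called (limma adjusted p under 0.05) and open where not. The point farthest to the right in the first panel is Slc7a11 at 1.80 (0.99 with a constant of 200 in place of 50, its controls being under a signal of 100), and in the second panel Gpx2 at 1.17.

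Cystine, the source of the cysteine in glutathione, enters cells through a transporter made of Slc7a11 and Slc3a2, and both subunits rose with NS-398 and with indomethacin. Slc7a11 read 43.2 and 57.2 with plain DMSO and 291 and 303 with plain NS-398. In the b set it read 527 and 600 with DMSO, 783 and 1152 with NS-398, and 916 and 880 with indomethacin. Its plain-set controls were thus under the signal of 100 used for the filter, and its lowest b-set control was above every plain-set NS-398 array. Slc7a11 rose by 1.80 ± 0.15 with NS-398 in the plain set (limma adjusted p 2.9e-06), by 0.71 ± 0.15 in the b set (adjusted p 0.00535) and by 0.63 ± 0.15 with indomethacin (adjusted p 0.0211). With controls this dim, the size of the plain-set change depends on the constant added before the log: it was 0.99 with a constant of 200 and 2.25 with 16, called with each.

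The b-set calls of Slc7a11 rested on single arrays. The NS-398 call was lost without b-set DMSO array 1 or NS-398 array 2 (adjusted p up to 0.1) and the indomethacin call without b-set DMSO array 1 or either indomethacin array (adjusted p up to 0.184 with 1 array left out). The effect of NS-398 on Slc7a11 was smaller in the b set, with a difference, b set minus plain set, of -1.09 ± 0.22 (limma adjusted p 0.00754). That difference depends on the constant added to the dim plain-set controls: it was -0.40 with a constant of 200, where it was not called (adjusted p 0.177).

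Slc3a2 read 2190 and 2204 with plain DMSO, 4240 and 4239 with b-set DMSO, 3044 and 2880 with plain NS-398, 5485 and 5560 with b-set NS-398, and 6921 and 6946 with indomethacin. No NS-398 or indomethacin array overlapped its controls, and indomethacin gave the highest values. Slc3a2 rose by 0.70 ± 0.06 with indomethacin (limma adjusted p 3.07e-06), and by 0.42 ± 0.06 and 0.38 ± 0.06 with NS-398 in the plain and the b set. Gss, glutathione synthetase, gave log2 changes of -0.01 ± 0.10 and -0.13 ± 0.10 with NS-398 and -0.09 ± 0.10 with indomethacin, none of them called. Cbs, of the same list, stayed under the filter.

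Of the 10 measured genes of glutathione breakdown, 3 rose and 3 fell with NS-398 over the mean of both sets, and 2 rose and 2 fell with indomethacin. Chac1, an enzyme that cleaves glutathione inside the cell and is known as a target of the integrated stress response, read 637 and 596 with b-set DMSO and 1116 and 1176 with indomethacin, against 521 and 545 with b-set NS-398. The indomethacin arrays stood above the controls, for a rise of 0.84 ± 0.15 (limma adjusted p 0.00265). The b-set NS-398 arrays lay below those controls, a difference that was not called. In the plain set the NS-398 arrays, at 163 and 143, overlapped the DMSO arrays, at 162 and 134. Ggt5 also rose with indomethacin, by 0.76 ± 0.15 (adjusted p 0.00488). The aminopeptidase Lap3 fell with it by 0.53 ± 0.12 (adjusted p 0.0106) and the dipeptidase Cndp2 by 0.28 ± 0.07 (adjusted p 0.0192). These 3 calls were kept under 14, 12 and 11 of 16 alternatives. With NS-398 over both sets Lap3 fell by 0.60 ± 0.08 on the log2 scale (adjusted p 8.84e-05) and Cndp2 by 0.38 ± 0.05 (adjusted p 5.19e-05). Both calls were kept whichever array was left out, while the rises of Ggt1 (0.34 ± 0.09), Ggct (0.28 ± 0.08) and Ggt5 (0.33 ± 0.10) and the fall of Chac2 (-0.28 ± 0.09) each lost their call without at least 1 array, with adjusted p up to 0.159.

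Glutathione peroxidases reduce peroxides with glutathione, and of the 7 measured members of that list 3 rose and 2 fell with NS-398 over the mean of both sets. Gpx2, the gastrointestinal form, read 472 and 545 with b-set DMSO and 1203 and 1206 with b-set NS-398, but between 19.6 and 58.4 on the 6 plain-set arrays. It rose by 1.17 ± 0.20 in the b set (limma adjusted p 0.00103), and in the plain set it stayed under the signal of 100 with and without the drug. Its call over both sets (0.55 ± 0.14, adjusted p 0.0134) therefore includes dim plain-set arrays, and it was lost without any of 3 arrays (adjusted p up to 0.0656). Gpx1 rose by 0.32 ± 0.06 in the b set (adjusted p 0.00178). Over both sets it gave 0.13 ± 0.04 (adjusted p 0.0424), a call lost without any of 7 of the 8 arrays (adjusted p up to 0.189). The third was Prdx6, a peroxiredoxin, which rose by 0.18 ± 0.05 over both sets (adjusted p 0.0156, up to 0.0878 with 1 array left out). Gpx7 and Gpx8, which reside in the endoplasmic reticulum, fell by 0.37 ± 0.06 and 0.30 ± 0.05 over both sets, with adjusted p of 0.000226 and 0.000496. Gpx8 also fell with indomethacin, by 0.32 ± 0.07 (adjusted p 0.0118), a call kept under 11 of 16 alternatives. Gpx4, which reduces lipid hydroperoxides, gave 0.09 ± 0.05 over both sets and was not called. Of the 4 glutaredoxins, Glrx2 rose by 0.19 ± 0.05, Glrx3 fell by 0.24 ± 0.05 and Glrx rose by 0.23 ± 0.07, the last with a call that was lost without any of 6 arrays (adjusted p up to 0.151).

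Of 22 other cytosolic transferases 10 were measured, and with NS-398 5 of the 10 rose over the mean of both sets and none fell. Gstt2, of the theta class, read 276 and 318 with plain DMSO, 472 and 509 with b-set DMSO, 645 and 540 with plain NS-398, and 1134 and 1124 with b-set NS-398. Both pairs of NS-398 arrays lay above their controls, for a rise of 1.01 ± 0.10 over both sets (limma adjusted p 3.72e-06). Gsta1, an alpha-class relative of Gsta4, read 3461 and 4068 with plain DMSO and 1288 and 1186 with b-set DMSO, and 5805 and 4983, and then 2421 and 2315, with NS-398. Like Gsta4 it had lower controls in the b set, and it rose over both sets by 0.71 ± 0.07 (adjusted p 7.19e-06). Gstm5 rose by 0.35 ± 0.04 (adjusted p 3.62e-05), and these 3 calls were kept whichever array was left out.

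With indomethacin, Gstt2 rose by 0.56 ± 0.14 (limma adjusted p 0.0211) and Gsta1 by 0.40 ± 0.10 (adjusted p 0.0272), and Gstm5 fell by 0.28 ± 0.06 (adjusted p 0.0103). Each of these 3 indomethacin calls was lost without at least 2 of the 4 arrays compared, with adjusted p up to 0.175. Of 7 membrane and mitochondrial transferases, 3 rose with NS-398 over both sets, and Mgst2 was the clearest, at 0.32 ± 0.03 (adjusted p 6.91e-06). The other calls were less stable: that of Mgst3 (0.28 ± 0.08, adjusted p 0.0264) was lost without any of 5 arrays (adjusted p up to 0.113) and that of Ptges2 (0.34 ± 0.11, adjusted p 0.0416) without any of 6 (adjusted p up to 0.202). With indomethacin Mgst2 rose by 0.23 ± 0.05 (adjusted p 0.00677) and Mgst1 by 0.30 ± 0.08 (adjusted p 0.0253). These calls were kept under 11 and 8 of 16 alternatives. With NS-398 Mgst1 went in opposite directions in the sets. It read 9329 and 9364 with plain DMSO and 8481 and 7238 with plain NS-398, and 10172 and 11027, and then 13950 and 12974, in the b set. Its change was -0.25 ± 0.08 in the plain set (adjusted p 0.0394) and 0.34 ± 0.08 in the b set (adjusted p 0.00583), and the difference of 0.60 ± 0.11 was called (adjusted p 0.0039). With 1 array left out, the difference kept its call each time, the plain-set change lost it without any of 3 arrays (adjusted p up to 0.385) and the b-set change without any of 2 (adjusted p up to 0.0804).

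Of 4 exporters of glutathione conjugates, 3 rose with NS-398 over both sets: Abcc4 by 0.59 ± 0.07 (limma adjusted p 4.12e-05), Abcc5 by 0.39 ± 0.08 (adjusted p 0.0039) and Abcc1 by 0.32 ± 0.10 (adjusted p 0.0309). The Abcc1 call was lost without any of 6 arrays (adjusted p up to 0.15). Abcc4 read 212 and 187 with plain DMSO, 316 and 364 with plain NS-398, 807 and 912 with b-set DMSO, and 1241 and 1284 with b-set NS-398. The NS-398 arrays of Abcc4 lay above the controls in both sets. With indomethacin Abcc1 rose by 0.56 ± 0.14 (adjusted p 0.0233), a call kept under 8 of 16 alternatives, and no other exporter was called.

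Of 5 glyoxalases and other enzymes that depend on glutathione, 3 rose over both sets, the esterase Esd by 0.25 ± 0.05 (limma adjusted p 0.00117), Adh5 by 0.19 ± 0.05 (adjusted p 0.0122) and Lancl1 by 0.21 ± 0.07 (adjusted p 0.0485). Of these, Esd kept its call whichever array was left out. With indomethacin Lancl1 rose by 0.36 ± 0.10 (adjusted p 0.0446), a call kept under 5 of 16 alternatives. Of 7 genes of NRF2 and its regulators 2 rose with NS-398 over both sets (28.6%, against 19.5% of all probe sets called). Within each set 14.3% were called, near the 11.9% of all probe sets in the plain set and 14.7% in the b set. Nfe2l2, which encodes NRF2, read 7817 and 8047 with plain DMSO, 7018 and 7465 with b-set DMSO, 10281 and 10194 with plain NS-398, and 8578 and 8824 with b-set NS-398. Its NS-398 arrays did not overlap the controls, and it rose by 0.32 ± 0.04 over both sets (adjusted p 5.06e-05). Nfe2l1, a relative of NRF2, rose by 0.31 ± 0.08 (adjusted p 0.0119), a call lost without plain DMSO array 2 (adjusted p 0.0653). Keap1, which holds NRF2 for degradation, gave 0.05 ± 0.08 and was not called. These levels are of RNA, and NRF2 is known to be controlled largely through its protein, which was not measured.

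The genes whose levels were most like those of the 6 were found by Pearson correlation over the 14 arrays, after the mean of each set had been removed, among 8101 named genes whose signal averaged 200 or more. The values are descriptions, since the arrays share their drug groups. Gclm was most like Mtbp (r = 0.967), Cemip and Poglut1 (both 0.955). Gclc was most like Pkd2, Txnrd1, the cytosolic thioredoxin reductase, and Timmdc1 (all 0.942). Gsr was most like Cfap418 (0.943), Aggf1 (0.941) and the aldose reductase Akr1b1 (0.94). Gsta4 was most like Btg1 (0.973), Hapln1 and the polyamine-acetylating enzyme Sat1 (both 0.969). Gstm1 was most like the glycolytic enzyme Tpi1 (0.965), the kinase Sgk1 (0.964) and Fam117a (0.961), and Gstp1 was most like Tsc22d1 (0.948), Rpl35 (0.947) and Clk1 (0.946).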

How the data were processed

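RNA was labelled after 2 rounds of in vitro transcription and hybridised to 14 one-colour Affymetrix arrays. The authors deposited linear signal intensity for 31099 probe sets, scaled over all probe sets to a target of 500 per the labels. The mean of each array, after trimming 2% at each end, was checked and lay between 500.163 and 500.173. Precision is limited by the number of arrays, and the summarising software is not given in the sources used here.

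Names came from the platform annotation of the probe sets, updated through a RefSeq table (GRCr8): 20832 had 1 symbol, 436 several and 9831 none listed, and 20764 gene identifiers matched. The 57 control probe sets were left out. Signals were transformed as log2(signal + 50), probe sets reaching 100 on at least 2 arrays (17515, for 9840 named genes) were kept, and limma 3.58.1 (R 4.3.3) fitted 7 means, 1 for each drug and set, with 7 residual degrees of freedom and an intensity trend. The set is inside these means, so every drug effect is taken within a set. Adjusted p-values are Benjamini-Hochberg values over all probe sets tested. The brightest probe set represented a gene.

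Named were all members, up to 3 called genes per list, direction and drug contrast with a mean signal of at least 200, chosen by smallest adjusted p, and 3 like genes per member. Members of a list outside that rule (Gss, Cbs, Gpx4, Keap1) were named after their values were seen. The members and lists were chosen with earlier results of these data known. The fit was tested on simulated data. Alternatives were the constant, the filter, the normalization, the model, the probe set and leaving out each array.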

Additional observations from a re-analysis of the deposited data

Results flagged for a closer look

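The highest DMSO signal of Gclm, 1048.5 on b-set array 1, lay far from the other 3 DMSO arrays for the range of that group, a gap that chance gives in about 1 of 20 groups of one kind. These 4 arrays were pooled over both label sets, and each set holds 2 DMSO arrays, so the gap could not be judged within a set. The same check was run on all 7 probe sets in each of the DMSO, NS-398 and SC-560 groups, and it flagged only this signal. Over that many checks, 1 such flag can arise by chance.

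The effect of NS-398 differed between the label sets for several genes, by an interaction in the limma fit. Of the 58 other pathway genes measured, 3 were called with a positive difference and 2 with a negative one. That share, 8.62%, is near the 6.09% of all probe sets called in this test. The log2 difference, b set minus plain set, was -1.49 for Gclm, -0.47 for Gclc at 1372523_at and -0.66 at 1370688_at, and -1.09 for Slc7a11. It was also negative for Mgst2 at -0.31, and positive for Gpx2 at 1.25, Mgst1 at 0.60 and Gpx1 at 0.38. Gpx2 was under a signal of 100 on all 6 plain-set arrays, so its plain-set change is not a measured level change. Gpx1 lost its call without any of 3 arrays (adjusted p up to 0.0666) and Gpx2 without any of 4 (adjusted p up to 0.0754). Gsta4, with a difference of 0.03, was not called.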

How the results depend on the processing

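Of 758 values of the 6 genes under the alternatives, 682 kept their direction and their side of the threshold. These 682 include values called in neither fit, among them every SC-560 value that kept its sign. Of the rest 45 lost the call, 1 gained it and 30 changed sign, of which 28 were called in neither fit. The 6 NS-398 calls over the mean of both sets, those of Gclc, Gclm, Gsta4 and Gstm1 in the plain set, and those of Gsta4, Gstm1 and Gstp1 in the b set were kept under all alternatives run, except that a model without the label sets, which leaves their difference in the residual spread, called 1 of 6 over the mean (Gclc) and 0 between NS-398 and indomethacin. For indomethacin the 1 call (Gstp1) went to 0 with no filter, equal array medians, an additive set term, no set term, the replicate block added to drug means, and no intensity trend. The NS-398 difference by set fell from 2 calls to 1 with no intensity trend. The cause was not tested. With 1 array left out the number of the 6 called ran from 0 to 1 with indomethacin, from 4 to 6 with NS-398 in the plain set, from 3 to 4 in the b set, from 1 to 2 for the difference by set and from 2 to 3 between the drugs. Gsr in the b set also lost its call with no filter and with no intensity trend (adjusted p up to 0.193 over its alternatives), and Gstp1 in the plain set with quantile normalization and no intensity trend.

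Values near 0 changed sign, uncalled unless stated. The Gsta4 difference by set was -0.021 with a constant of 200, and -0.076 to 0.14 with 1 array left out. For indomethacin, Gsta4 was -0.043 with equal medians, -0.022 with the additive set term or the block, -0.78 without a set term and -0.061 to 0.082 with 1 array left out. Gclm with indomethacin was 0.19 with the additive term or the block and -0.21 to 0.0044 with 1 array left out, and without a set term Gstm1 was -0.37 and Gstp1 -0.062, the latter called in the main model. Between the DMSO arrays of the sets, Gclc was -0.030 with equal medians, -0.11 with the additive term and -0.061 to 0.087 with 1 array left out, and Gclm was -0.51 with the additive term (called, adjusted p 0.0133) and -0.024 to 0.19. For SC-560, leaving out 1 array gave -0.11 to 0.070 for Gsr, -0.061 to 0.027 for Gsta4 and -0.062 to 0.0079 for Gstm1.

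Arrays of the same digit did not deviate together (correlations of deviations from -0.078 to 0.063), so the numbers were not taken as a pairing. With the replicate block added to the drug and set means, an alternative chosen after seeing the data, Gsr in the b set was the 1 call lost, at 0.41 (adjusted p 0.0525). Over all probe sets the calls ranged from 111 to 3520 for NS-398 over both sets, 833 to 2184 in the plain set, 1151 to 2662 in the b set, 504 to 1220 for the difference by set, 2 to 1349 for indomethacin, 15 to 1826 between the drugs, 0 to 105 for SC-560, 1 to 8 for its difference by set and 5745 to 10328 between the DMSO sets. Of the 58 other pathway genes, the counts called higher and lower with indomethacin, 10 and 4, became 4 and 4 with no filter, 7 and 4 with equal medians, 7 and 3 with the additive term, 3 and 2 with the block added to drug means, 3 and 1 with no intensity trend and 0 and 0 without a set term. With NS-398 over both sets, 26 and 6 became 20 and 5 with no filter, 18 and 5 with no intensity trend, 17 and 6 with the block added to drug means and 0 and 0 without a set term. In the plain set 16 and 5 became 9 and 4 with no filter or no intensity trend and 10 and 5 in the fit to that set alone, and in the b set 20 and 4 became 14 and 1 with no intensity trend. The additive, no-set and drug-plus-label models give no value per set, and the fit to 1 set gives none over both.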
